A study of Mus musculus with 5 samples.

Results

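The complement genes described here are C3, Cfb, C1ra, C1s, C4b, Serping1 and Cd55, 7 genes named by symbol. They were chosen with earlier results of these data known. Each was measured through every probe set that the platform annotation assigns to it alone. Of the 7 genes, 5 had such a probe set, out of 18194 genes in all: Cfb, C1ra, Serping1 and C1s1, which is the annotated symbol of mouse C1s, with 1 probe set each, and Cd55 with 3. C3 had no probe set under its symbol and the probe set of C4b also carried the symbol C4a, so neither gene was analysed here. The study hybridised 5 one-colour oligonucleotide arrays with RNA of cultured cells labelled as aortic endothelial cells of C57BL/6J mice, 3 titled control and 2 titled TNF-LTBR, all with 24 h in the title. All cultures grew in the same serum medium with heparin and an endothelial growth supplement and were fed 24 h before stimulation. The treatment text names PBS for every sample, so only the titles define the TNF-LTBR group, and which agonists and doses it received is not stated there. The labels do not say whether the arrays came from separate cultures, so the spread behind the p-values is that between arrays and may be technical.

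Complement is a cascade of plasma and locally made proteins that marks surfaces for clearance. In its classical pathway, C1q binds a target, the protease C1r activates the protease C1s, and C1s cleaves C4 and C2 to build the enzyme that splits C3. Cfb encodes factor B, the catalytic subunit of the alternative pathway's C3-splitting enzyme. Serping1 encodes C1 inhibitor, which inactivates C1r and C1s, and Cd55 encodes decay-accelerating factor, a membrane-anchored protein that takes the C3-splitting enzymes apart on the cell's own surface. Vessel wall cells, fibroblasts and macrophages make several of these components themselves, and inflammatory cytokines are known to change their transcription.

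C1ra and C1s1 lie next to each other on mouse chromosome 6, and on 1 probe set each their levels moved together over the 5 arrays. Cd55, on chromosome 1 beside its duplicate Cd55b, followed another pattern. Whether gene position has a part in these patterns was not tested. The promoter windows of these 3 genes, the measured members matched in the promoter table used here, are printed from RefSeq on build GRCm38.p6, each with 250 bases before and 50 bases after the start of transcription. The C1ra window is chr6:124512371-124512670 on the plus strand, the C1s1 window chr6:124542310-124542609 on the minus strand, and the Cd55 window chr1:130462695-130462994 on the minus strand. C1s1 has a second listed window, whose start lies nearby. Capitals mark matches, on either strand, to any of 4 motifs: the kappaB consensus bound by NF-kB, TTCNNNGAA (the GAS motif of STAT factors), GAAANNGAAA (the interferon response element) and TTGCNNAA (a C/EBP motif).
C1ra promoter: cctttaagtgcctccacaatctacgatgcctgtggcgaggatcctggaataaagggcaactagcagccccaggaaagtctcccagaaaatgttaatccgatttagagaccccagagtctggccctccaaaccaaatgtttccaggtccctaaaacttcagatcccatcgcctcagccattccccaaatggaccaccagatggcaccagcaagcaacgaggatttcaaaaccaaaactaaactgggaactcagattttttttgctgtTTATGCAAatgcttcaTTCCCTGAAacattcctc
C1s1 promoter: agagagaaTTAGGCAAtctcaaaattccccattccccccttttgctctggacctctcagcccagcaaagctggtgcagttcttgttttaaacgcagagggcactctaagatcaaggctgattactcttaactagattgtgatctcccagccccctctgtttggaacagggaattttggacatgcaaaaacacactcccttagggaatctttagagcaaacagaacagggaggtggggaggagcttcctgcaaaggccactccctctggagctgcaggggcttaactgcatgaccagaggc
Cd55 promoter: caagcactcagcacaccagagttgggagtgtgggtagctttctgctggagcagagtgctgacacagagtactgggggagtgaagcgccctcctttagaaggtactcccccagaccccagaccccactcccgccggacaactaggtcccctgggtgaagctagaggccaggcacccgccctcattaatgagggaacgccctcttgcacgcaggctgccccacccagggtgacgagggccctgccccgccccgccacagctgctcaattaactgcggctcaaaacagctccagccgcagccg

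The C1ra window held the GAS letters at positions 33 to 41 after the start and the C/EBP letters on the opposite strand at positions 17 to 24, and these matches do not overlap. The GAS letters read the same pattern on both strands and so match on each. The C1s1 window held the C/EBP letters on the opposite strand at positions -242 to -235, and its other window held no match. No match to the 4 motifs was found in the Cd55 window. Among 32851 promoter windows of the same length, 8.3% held the GAS letters, 10.8% the C/EBP letters, 3.44% the interferon response element and 4.51% the kappaB consensus. A match is a description of these letters only.

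Median intensity lay between 109.9 and 120.7 over the 5 arrays. Values are deposited linear intensities, or log2(intensity + 16) where a log2 value is named. The main contrast between arrays did not follow the titles. Control 3 and TNF-LTBR 2 were the 2 highest arrays for 25.5% of 10916 tested genes and control 2 and TNF-LTBR 1 for 20.6%, against 6.94% for both TNF-LTBR arrays. Results are also given without control 3 and without TNF-LTBR 2. Leaving out either keeps its like array in the other group, so these fits do not take the contrast out of the group difference. Of 16 endothelial markers, 6 were bright enough to be tested, among them Eng at 1550.2 to 1858.3, while Vwf, a defining endothelial gene, lay at 2.3 to 7.2, below the added 16 on every array, and Pecam1 at 52.6 to 198.9. All 11 fibroblast and pericyte markers were tested, with Col1a2 at 17596.6 to 20691.4. The cultures are therefore called by their label only.

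Both groups were compared with limma over all 10916 tested genes, with Benjamini-Hochberg adjustment and a threshold of 0.05. Cd55, Cfb, C1s1 and C1ra lay higher in the TNF-LTBR group, by 1.33, 0.85, 0.62 and 0.38 on the log2 scale, and Serping1 lay 0.25 lower (a difference of -0.25). None of these differences passed the test: 0 of the 5 genes were called (adjusted p 0.999 for each), as were 0 of the 10916 genes (0%). At an unadjusted p under 0.05 the counts were 0 of 5 and 192 of 10916 (1.76%). The median difference of the 5 genes was 0.62, beside 0.00 over all tested genes. Since the genes were chosen with earlier results known, this is a description only. The groups did not overlap for 1 of the 5 genes, Serping1, against 13.3% of all tested genes (6.94% higher and 6.34% lower in TNF-LTBR). NF-kB feedback genes, a list known from earlier results to differ between the titles, had means over 9 tested genes of 9.33 to 9.63 on the control arrays and 10.65 and 10.89 on the TNF-LTBR arrays.

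**Figure D1:**
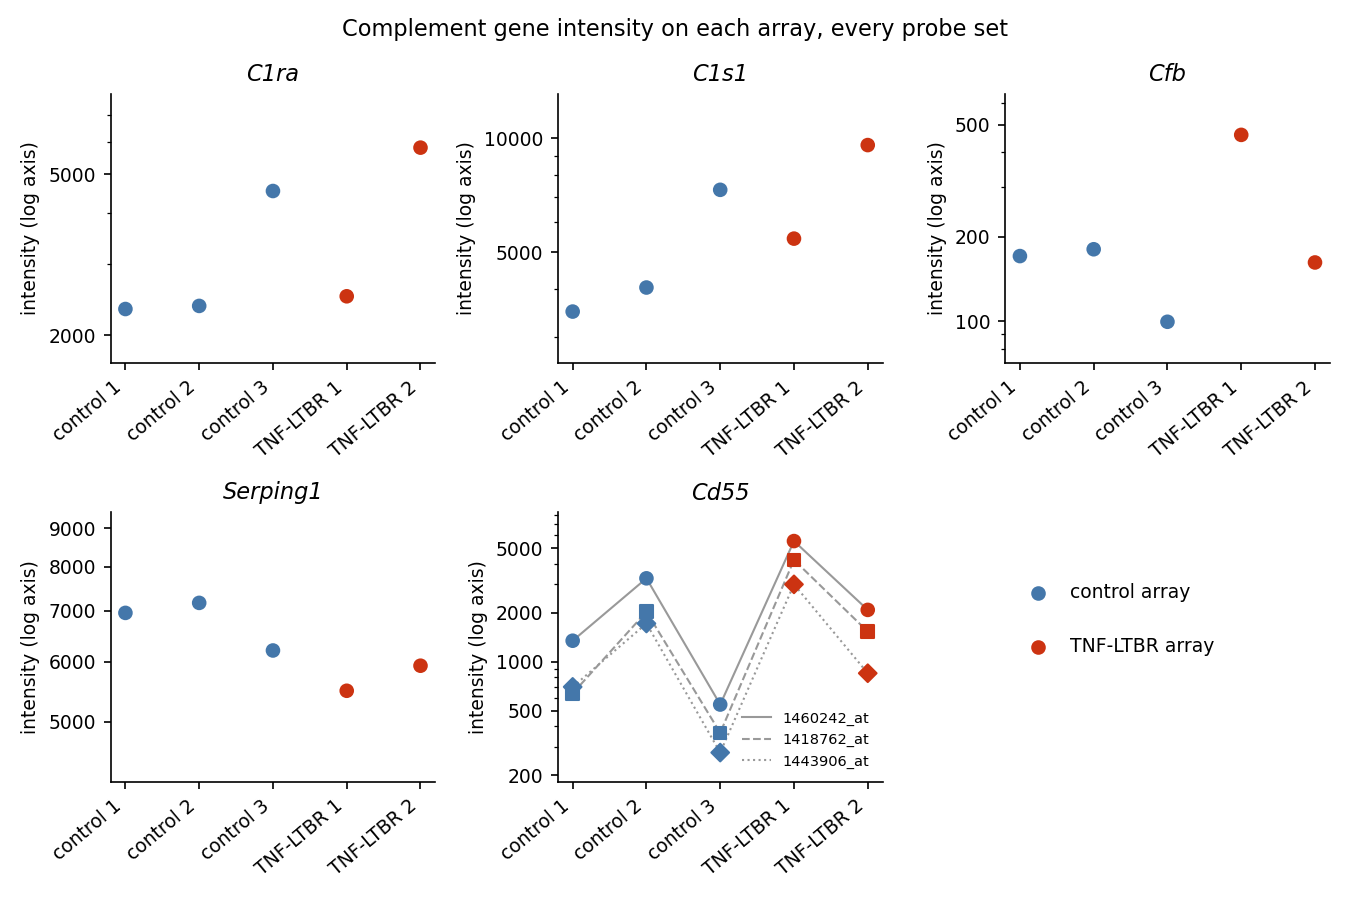
Intensity of each measured complement gene on each of the 5 arrays (logarithmic axes; blue, control; red, TNF-LTBR; 1 point per array and probe set; lines join the points of each Cd55 probe set). C1ra and C1s1 were highest on TNF-LTBR 2 and control 3, Cfb and Cd55 on TNF-LTBR 1, and only for Serping1 did both TNF-LTBR arrays lie on 1 side of the controls.

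C1ra encodes C1r, the protease that starts the classical pathway once C1q is bound. Its intensity was 2319.8, 2361.1 and 4542.9 on controls 1 to 3 against 2494.2 and 5815.8 on TNF-LTBR 1 and 2. Control 3 and TNF-LTBR 2 were high, the other 3 arrays lay close together, and the groups overlapped. On the log2 scale C1ra was at 11.52 ± 0.55 (SD, n = 3) in control against 11.90 ± 0.86 (n = 2) in TNF-LTBR, a difference of 0.38 with an SE of 0.47 (limma, unadjusted p 0.455). The 95% interval of the difference, -0.82 to 1.58, includes changes in either direction. Without TNF-LTBR 2 the difference turned to -0.23. It was 0.70 without control 3, 0.99 without TNF-LTBR 1, and 0.22 and 0.23 without controls 1 and 2.

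C1s1 encodes C1s, the protease that C1r activates. Its intensity was 3493.4, 4042 and 7311 on controls 1 to 3 against 5437.7 and 9590.4 on TNF-LTBR 1 and 2. Both TNF-LTBR arrays lay above control arrays 1 and 2, and control 3 lay between them. The level was 12.20 ± 0.56 (SD, n = 3) in control against 12.82 ± 0.58 (n = 2) in TNF-LTBR, 1.54-fold, with a log2 difference of 0.62, an SE of 0.40 and a 95% interval of -0.40 to 1.64 (limma, unadjusted p 0.182). The difference was 0.94 without control 3 (limma, unadjusted p 0.0337, adjusted p 0.999) and 0.41 without control 1 (limma, unadjusted p 0.398). It was 1.03 without TNF-LTBR 1 and 0.21 without TNF-LTBR 2. The C1s1 probe set carries a suffix that can mark sequence shared between transcripts.

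The 2 proteases of the C1 complex had the same order of arrays, from control 1 through control 2, TNF-LTBR 1 and control 3 to TNF-LTBR 2. That order was found in 159 of the 10916 tested genes, or 1.46%. After each gene's own mean was taken off, their log2 profiles over the 5 arrays differed by a root mean square of 0.18. This was the smallest distance among the 10 pairs of measured complement genes, and the median distance of C1ra to all tested genes was 0.57. The likeness was not particular to the pair, since genes outside the complement list lay closer to each. Sowahc lay at 0.09 from C1ra and Ern1 at 0.04 from C1s1. The highest array exceeded the lowest 2.51-fold for C1ra and 2.75-fold for C1s1, and within the controls alone the ratio was 1.96 and 2.09.

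C1q, the recognition subunit of the same complex, was low on the arrays where C1ra and C1s1 were high. C1qa lay at 232.9, 437.2 and 5.8 on controls 1 to 3 against 370.1 and 4.2 on TNF-LTBR 1 and 2. C1qc followed with 256.1, 336 and 7 in control against 257.8 and 5.6 in TNF-LTBR. C1qb, the only 1 of the 3 bright enough to be tested, was at 509.4, 655.3 and 65.4 in control against 606.4 and 35.9 in TNF-LTBR, and differed by -0.77 with an SE of 1.39 on the log2 scale. For all 3 C1q genes, control 3 and TNF-LTBR 2 were the lowest arrays of their groups.

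Macrophages are a known source of C1q, and most of their tested markers moved with it. Of 11 macrophage markers 7 were tested, and 6 of the 7 had control 2 and TNF-LTBR 1 as their 2 highest arrays, against 20.6% of all tested genes. The summed intensity of the 11 markers was 4582, 8781.7 and 2906.5 on controls 1 to 3 against 9738.5 and 3264.1 on TNF-LTBR 1 and 2. Lyz2, the lysozyme gene of macrophages, was at 186.3 on control 3 and 66.5 on TNF-LTBR 2, against 1088.5 to 3933.6 on the other arrays. The fall was not uniform over the list. Cd14 was at 828.8 on control 3 and 797.8 on TNF-LTBR 2, above its 600.2 on control 1. Cd53 was at 1104 on control 3 and 1659.1 on TNF-LTBR 2, against 1110.3 on control 1. Ptprc, the pan-leukocyte gene, lay at 12.3 to 75.2. Low values on control 3 and TNF-LTBR 2 were not particular to macrophage markers. The lowest array was control 3 or TNF-LTBR 2 for 6 of 7 tested macrophage, 4 of 6 endothelial and 5 of 8 smooth muscle markers. Control 2 and TNF-LTBR 1 were the 2 highest arrays for 1 of the 6 endothelial and 0 of the 8 smooth muscle markers. In bulk RNA, fewer cells of a type and less RNA per cell cannot be told apart, and the part of these markers in the C1q values was not tested.

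**Figure D2:**
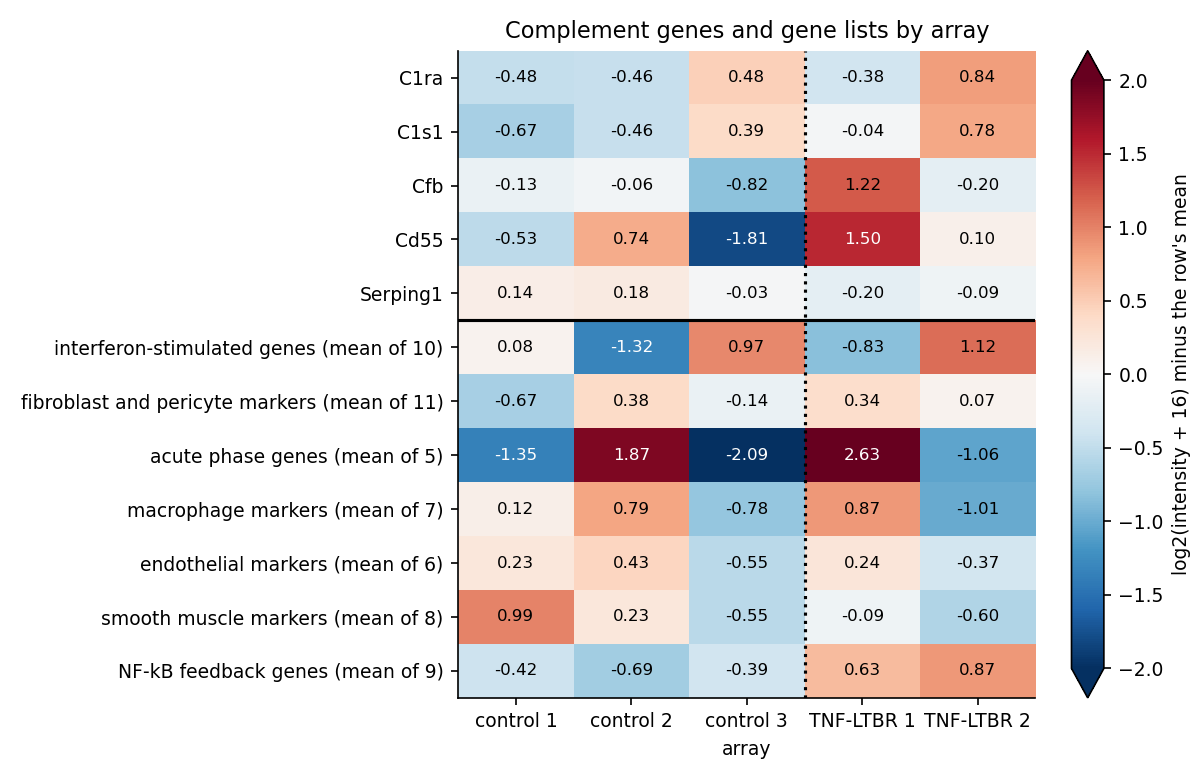
log2(intensity + 16) of each measured complement gene (upper rows) and mean of the tested genes of each list (lower rows) on the 5 arrays, after subtraction of the row's mean; red is above and blue below that mean, and colours saturate at the ends of the scale. C1ra and C1s1 were highest in the same columns as the interferon-stimulated genes, and Cd55 and Cfb were highest on TNF-LTBR 1, where the acute phase genes were also highest.

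Cfb encodes factor B. Its intensity was 170.6, 180.4 and 99.6 on controls 1 to 3 against 460.4 and 161.9 on TNF-LTBR 1 and 2. Only TNF-LTBR 1 stood above the controls, and TNF-LTBR 2 fell between them. Cfb was at 7.34 ± 0.42 (SD, n = 3) in control against 8.19 ± 1.00 (n = 2) in TNF-LTBR, 1.80-fold, with a log2 difference of 0.85, an SE of 0.50 and a 95% interval of -0.42 to 2.11 (limma, unadjusted p 0.148). Without TNF-LTBR 1 the difference was 0.14. Without TNF-LTBR 2, which leaves 1 TNF-LTBR array, it was 1.56, and without control 3 it was 0.60.

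Cd55 encodes the surface inhibitor decay-accelerating factor. On its brightest probe set the intensity was 1346.4, 3261.9 and 544.7 on controls 1 to 3 against 5532.4 and 2084.8 on TNF-LTBR 1 and 2. TNF-LTBR 1 was the highest array and control 3 the lowest, 10.2-fold apart, and control 2 lay above TNF-LTBR 2, so the groups overlapped. The level was 10.41 ± 1.27 (SD, n = 3) in control against 11.74 ± 0.99 (n = 2) in TNF-LTBR, 2.51-fold. The log2 difference of 1.33 had an SE of 0.83 and a 95% interval of -0.76 to 3.42 (limma, unadjusted p 0.166). It was 1.97 without control 2 (limma, unadjusted p 0.0324, adjusted p 1) and 0.69 without control 3 (limma, unadjusted p 0.343). The difference was 0.63 without TNF-LTBR 1 and 2.03 without TNF-LTBR 2.

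The other probe sets of Cd55 gave the same picture. The second brightest read 637.9, 2031.8 and 364.8 in control against 4233.4 and 1533.2 in TNF-LTBR, a log2 difference of 1.68. The dimmest read 699.6, 1719.1 and 275.6 in control against 2994.1 and 849.1 in TNF-LTBR, a log2 difference of 1.18. On all 3 probe sets control 3 was lowest, TNF-LTBR 1 highest and control 2 second. In the fit on every probe set, none of the 3 passed (limma, unadjusted p 0.0843 to 0.23, adjusted p 1).

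Cd55 spread widely even within the controls, where the highest array exceeded the lowest 5.99-fold. Its SD over the 5 arrays, 1.26, was at or above that of 98% of tested genes. Acute phase genes, which encode secreted proteins of early inflammation, shared its high arrays. All 5 tested acute phase genes had control 2 and TNF-LTBR 1 as their 2 highest arrays, against 20.6% of all tested genes, and their mean was 7.60, 10.82 and 6.86 in control against 11.58 and 7.89 in TNF-LTBR. Macrophage markers, with 6 of 7 tested genes highest on the same 2 arrays, shared them too. The part of either list in the Cd55 values was not tested.

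Serping1 encodes C1 inhibitor. Its intensity was 6956.9, 7171.3 and 6207 on controls 1 to 3 against 5493 and 5926.8 on TNF-LTBR 1 and 2. Both TNF-LTBR arrays lay below all 3 controls. The level was 12.73 ± 0.11 (SD, n = 3) in control against 12.48 ± 0.08 (n = 2) in TNF-LTBR, 0.844-fold. The log2 difference of -0.25 had an SE of 0.12 and a 95% interval of -0.54 to 0.05 (limma, unadjusted p 0.0883). Since both TNF-LTBR arrays lay below every control, the difference had to stay negative with any array left out. It was -0.31 to -0.20 without a control array, and -0.19 and -0.30 without TNF-LTBR arrays 1 and 2.

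Serping1 was also the steadiest of the measured complement genes: its highest array exceeded its lowest 1.31-fold, and 29.1% of tested genes had an SD at or below its own. Its order of arrays was found in 29 tested genes (0.266%). That order was read from the gene's own values, so its share is a description and not a test.

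The TNF-LTBR arrays differed from each other in 4 of the 5 genes, Serping1 being the exception. On TNF-LTBR 1, Cd55 lay 2.03 and Cfb 1.56 above the control mean on the log2 scale, at or above 99.5% and 99% of tested genes, while C1s1 was at 0.21 and C1ra at -0.23. On TNF-LTBR 2, C1s1 lay 1.03 and C1ra 0.99 above the control mean, at or above 98.5% and 98.4% of tested genes, while Cd55 was at 0.63, still at or above 96.3% of tested genes, and Cfb at 0.14, at or above 70.5%. Serping1 was at -0.30 and -0.19, a gap smaller than its difference between the groups. The gap between the 2 TNF-LTBR arrays was 1.42 for Cfb, 1.40 for Cd55, -1.22 for C1ra and -0.82 for C1s1 (TNF-LTBR 1 minus TNF-LTBR 2). In size, these gaps were at or above those of 95.1%, 94.9%, 93.1% and 85.7% of tested genes. For each of these 4 genes the gap was larger in size than the difference between the groups. How many of all tested genes share this was not counted. These are single arrays and have no replicate check.

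**Figure D3:**
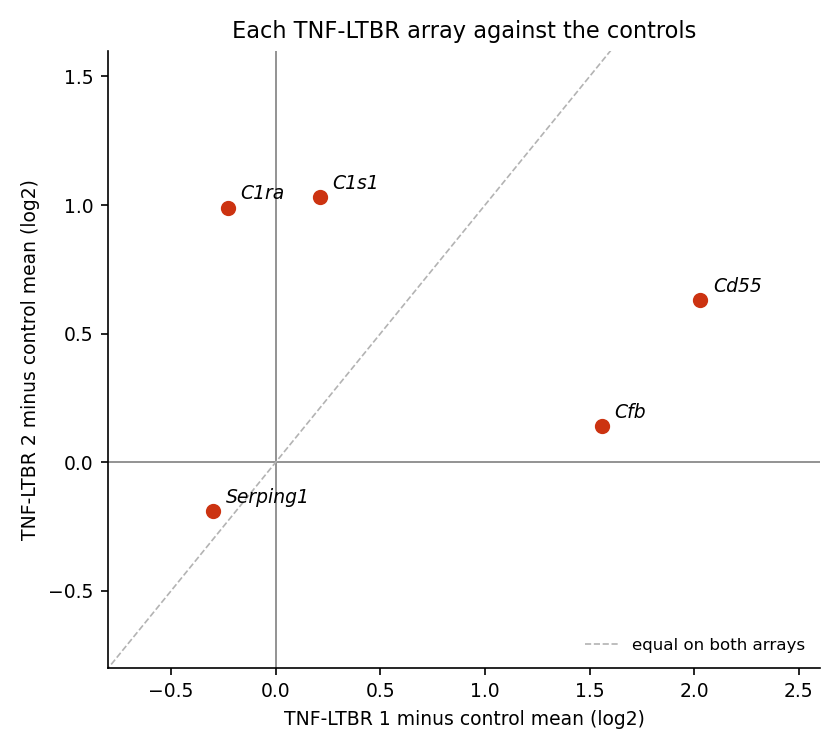
Difference of each TNF-LTBR array from the mean of the 3 control arrays, log2(intensity + 16), for the 5 measured complement genes (horizontal axis, TNF-LTBR 1; vertical axis, TNF-LTBR 2; dashed line, equal on both). Cd55 and Cfb lie to the right of the line with 2.03 and 1.56 on TNF-LTBR 1, C1s1 and C1ra above it with 1.03 and 0.99 on TNF-LTBR 2, and Serping1 near it.

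Interferon-stimulated genes, which cells switch on through STAT and IRF factors, were also high where C1ra and C1s1 were. Of 10 tested, 8 had control 3 and TNF-LTBR 2 as their 2 highest arrays, against 25.5% of all tested genes, and their mean was 10.19, 8.79 and 11.08 in control against 9.28 and 11.23 in TNF-LTBR. They differed from the proteases on control arrays 1 and 2: the list mean was 10.19 on the first and 8.79 on the second, while C1ra was level there, at 11.19 and 11.21. Fibroblast and pericyte markers went both ways: of 11, 5 had control 3 and TNF-LTBR 2 as their 2 highest arrays and 3 had control 2 and TNF-LTBR 1. Lum, a matrix proteoglycan gene of fibroblasts, was at 12967.3 and 12933.2 on these arrays and at 818 to 1145.4 on the other 3. Thy1, a surface marker of fibroblasts, was at 154.6 and 127.9 on these arrays and at 2583.1 to 12215.1 on the others. The part of these lists in the values of C1ra and C1s1 was not tested.

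The genes with array profiles most like those of the members were found by the smallest root mean square difference of centred log2 values over the 5 arrays. For C1s1 they were Ern1 (0.04), Bid (0.09) and Six2 (0.10), and for C1ra Sowahc (0.09), Zc3hav1 (0.10) and Nfatc1 (0.12). Ern1, for example, read 1500.8, 1603.6 and 3128.5 in control against 2303 and 4145.6 in TNF-LTBR. For Cfb they were Fosl1 (0.14), Prkar2b (0.15) and Penk (0.17), and for Cd55 Rarres1 (0.21), Has1 (0.29) and Uhrf1 (0.33). Rarres1 read 721.3, 2356.6 and 339.6 in control against 4084.9 and 1062.3 in TNF-LTBR. Serping1 varied too little for this comparison, which required an SD of at least 0.5. With 5 arrays such likeness is a description.

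The wider complement list held 49 further genes, of which 39 had a probe set of their own and 15 were bright enough to be tested. None of the 15 passed (limma, 0 called, 0 at an unadjusted p under 0.05), with 6 higher and 9 lower in TNF-LTBR and a median difference of -0.09. The groups did not overlap for 3 of the 15, C2 and Fcna higher and Cd59a lower, where 13.3% of all tested genes did not overlap. C2, the partner that C1s cleaves together with C4, read 332.4, 342.2 and 199.9 in control against 395.6 and 357.5 in TNF-LTBR, a log2 difference of 0.39 with an SE of 0.28. Fcna, a ficolin that triggers the lectin pathway, differed by 0.24 with an SE of 0.23. It read 110.3 to 148.1 in control against 158.6 and 159.5 in TNF-LTBR, near the brightness filter at an intensity of 128. Cd59a, which blocks the membrane attack complex, differed by -0.19 with an SE of 0.17. Its groups were barely apart, with TNF-LTBR 1 at 1236.4 and control 1 at 1237.7.

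Among the other regulators, Cr1l, which encodes the rodent C3 convertase inhibitor Crry, read 1285.4, 1222.4 and 1906.9 in control against 1378.4 and 2053.4 in TNF-LTBR and was high on the same arrays as C1ra. Clu, which encodes clusterin, an inhibitor of the terminal complex, read 8364.6, 16778.1 and 7629.8 in control against 14661.2 and 8125.5 in TNF-LTBR. Its high arrays were control 2 and TNF-LTBR 1, those of Cd55. Thbd, Cd46 and Cfi differed by -0.09, 0.13 and -0.24.

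In the lectin pathway, Masp1, the protease that parallels C1r and C1s, read 777.5, 1160.6 and 295.5 in control against 1011.4 and 358.7 in TNF-LTBR. It was low where C1ra and C1s1 were high. The collectins Colec11 and Colec12 differed by -0.81 and -0.28, with SEs of 0.47 and 0.35. Unlike Masp1, Colec12 was highest on control 3 (5219.1) and next on TNF-LTBR 2 (3813.9), and Colec11 was highest on control 3 (306.2). Cfp, which encodes properdin, the stabiliser of the alternative pathway enzyme, differed by -0.47 with an SE of 0.32. Of the genes listed here under receptors, C3ar1 for the C3a fragment was level at 0.01, and Cd93 differed by -0.60 with an SE of 0.68. All 6 measured genes of the terminal pathway, Hc, C6, C8a, C8b, C8g and C9, lay below the brightness filter on every array.

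**Figure D4:**
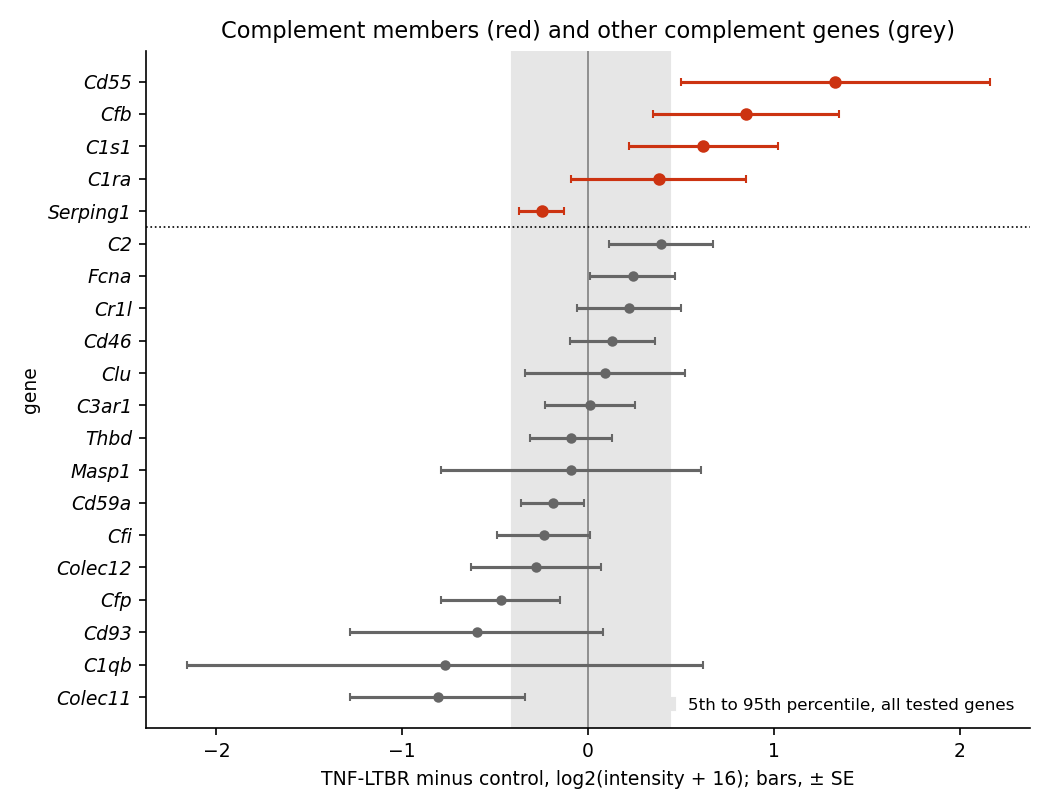
Difference between TNF-LTBR and control on the log2(intensity + 16) scale for the 5 measured complement genes (red) and the 15 tested genes of the wider complement list (grey); bars are the SE of the limma fit, and the shaded band holds the middle 90% of all tested genes (-0.41 to 0.44). Cd55, Cfb and C1s1 lie above the band with SEs of 0.83, 0.50 and 0.40, and none of the 20 genes passed the test.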

How the data were processed

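The members and gene lists were chosen with earlier results of these data known. The deposited values were linear intensities, 1 for each probe set and array, made with GCOS 1.4 per the submitters' processing notes, which name neither the summary method nor the scaling. With 2% of probe sets trimmed at each end, array means were 499 to 500, so no further scaling was applied. Of the probe sets, 34958 had 1 symbol, 932 several and 9211 none listed, and only the first were used. C1s was matched to C1s1 as a synonym in a RefSeq gene table of GRCm38.p6. Values were transformed as log2(intensity + 16), which understates dim genes' changes. The brightest probe set stood for each of 18194 genes, and the brightest 60% (mean of at least 7.17, an intensity of 128) were tested with limma 3.58.1 in R 4.3.3 (lmFit, eBayes with intensity trend, two-sided, 3 residual degrees of freedom). The code of the fit was checked on simulated arrays with independent noise. These lack the contrast between arrays seen here, so the check does not cover it. With 3 and 2 arrays, the smallest p of an exact permutation test is 0.1. The number of arrays limits the precision. All members and their probe sets are named, with tested genes of the wider list, markers that show an array pattern, and, for members with an SD of at least 0.5, the 3 genes of most like profile. C1qa, C1qc and the markers given singly were chosen after their values were seen. Alternatives were other pseudocounts, filters, normalizations, probe set choices and fit settings, a block for the replicate number, and fits that each left out 1 array.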

Additional observations from a re-analysis of the deposited data

How the results depend on the processing

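Under all 17 alternatives 0 genes passed limma (smallest adjusted p 0.563 to 1). The direction of Cfb, C1s1, Serping1 and Cd55 was kept under every alternative that gave a value, and that of C1ra under 16 of 17. For Serping1, leaving out an array could not turn the direction, since the groups do not overlap. C1ra ranged from -0.23, without TNF-LTBR replicate 2, to 0.99 when an array was left out. The median difference of the 5 genes ranged from 0.21 to 0.69 when an array was left out, at 0.21 without TNF-LTBR replicate 2, and from 0.50 to 0.73 otherwise. The number of genes without overlap, 1 with all arrays, was 1 to 3 when an array was left out and 1 otherwise. With fewer arrays more genes do not overlap: the share over all tested genes was 20.5% to 28.1% without a control array (1 to 3 members), and 40.4% and 53.7% when TNF-LTBR array 1 or 2 was left out (3 members each). Cfb had no value when 40% of genes were tested, nor C1s1 without suffixed probe sets, and the median then rests on the other members. With the replicate number as a block (replicate block), which takes control 3 out of the comparison, the differences were 0.60 for Cfb, 0.70 for C1ra, 0.94 for C1s1 (unadjusted p 0.0192, adjusted p 1), -0.31 for Serping1 and 0.69 for Cd55. The arrays share only a number: deviations from the group means correlated at 0.13 for number 1 and -0.80 for number 2. The deviations of the 2 TNF-LTBR arrays are equal and opposite by construction. The correlation of control 2 with TNF-LTBR 1, 0.80, is therefore the number 2 value with its sign changed. Control 3 correlated at 0.81 with TNF-LTBR 2. Cfb, at 99.6 to 180.4 in control, lies near the brightness filter.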

Other observations

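Probe sets annotated to a member together with a second gene measure neither gene alone. The probe set shared by C4a and C4b, which encode forms of the fourth component, read 1321, 1121.6 and 1456.8 on controls 1 to 3 against 1111.4 and 1841.9 on TNF-LTBR 1 and 2. It was highest on TNF-LTBR 2 and next on control 3, and differed between the groups by 0.15 on the log2 scale with overlap. The probe set shared by C1ra and its duplicate C1rb read 505.2, 795.2 and 840.6 in control against 490.7 and 678.7 in TNF-LTBR, a difference of -0.26, where the C1ra probe set of its own differed by 0.38. It was highest on control 3 and next on control 2, and so did not follow the array pattern of the C1ra probe set of its own. The probe set shared by Cd55 and Cd55b lay at 0.7 to 28.9. C4bp, a regulator of C4 below the brightness filter, read 73.7, 341.4 and 13.6 in control against 228.4 and 26 in TNF-LTBR, and so was high on the arrays where Cd55 was highest.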
